A study of Homo sapiens with 18 samples.

Results

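The arrays of MCF10A cells that received YAP/TAZ and ESR1 cDNA were set against the arrays of MCF10A cells with hairpins labelled shLATS1+2. The rule took the 3 arrays titled for the non-targeting hairpin shNT with YAP/TAZ and ESR1 cDNA, and the 3 titled for shLATS1+2 with ctrl cDNA, so that 6 of the 18 arrays of the series are compared. The first group is called the both-cDNA arrays, and the second the shLATS1+2 arrays. MCF10A is a non-tumorigenic cell line derived from human breast epithelium. In every group a pLKO lentivirus delivered the hairpin at a multiplicity of infection of 5. Puromycin selection (1.5 µg/ml) took 4 days, and a recovery of at least 7 days followed. All cells were then transiently transfected and kept for 5 days in M5, a medium that contains estrogen, before RNA was taken. The 2 groups therefore differ in hairpin and in cDNA at once. The other groups of 3 arrays were shNT with ctrl cDNA, called the control arrays, shNT with YAP/TAZ cDNA, shNT with ESR1 cDNA, and shLATS1B, a hairpin against LATS1 alone, with ctrl cDNA. These 12 arrays entered the model with the 6, so that all 18 set the estimate of the spread, and the control and shLATS1B arrays also serve as further points of comparison. In some gene lists below, but not in all, the YAP/TAZ cDNA and ESR1 cDNA arrays lay near the controls. The both-cDNA arrays lay near the hairpin arrays there. A difference from the controls is therefore given as a level, and its cause was not tested. The labels name infected cell populations and no clones.

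In the Hippo pathway the kinases LATS1 and LATS2 phosphorylate YAP and TAZ, the products of YAP1 and WWTR1, and keep them out of the nucleus. Unphosphorylated YAP and TAZ bind TEAD factors on DNA and switch on genes for growth, matrix and the cytoskeleton. Estrogen receptor alpha, encoded by ESR1, marks luminal cells of the breast, whereas MCF10A cells have largely basal features. Removing the kinases and supplying their targets YAP and TAZ are thus separate ways into one pathway. The both-cDNA arrays also received ESR1 cDNA, so the comparison is not between those ways alone. It asks which transcripts differ between the 2 groups of arrays.

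Values are the deposited log2 intensities of Affymetrix whole-transcript arrays, where a difference of 1 is a doubling. Medians over all probe sets lay between 5.49 and 5.58 in the 6 arrays. Across genes, each array correlated with its own group at r between 0.997 and 0.999 and with the other group at 0.995 or less. Within the groups, both-cDNA array 1 and shLATS1+2 array 3 stood apart from the other arrays. On the first principal component of the 6 arrays, which held 72.0% of the variance, array 1 scored 8.54 where the other both-cDNA arrays scored 18.8 and 18.1. The shLATS1+2 array 3 scored -23.7 where the others scored -10.4 and -11.2. Epithelial markers were bright in all 6 arrays, with KRT5 between 12.13 and 12.38 and EPCAM between 11.23 and 11.35. The basal keratin KRT14 lay lower, between 8.03 and 8.20. Of the defining markers of blood, vessel and stromal cells that were measured, PTPRC (4.40 to 4.47), LUM (4.58 to 4.67), CD3E, CDH5 and VWF lay under the percentile 30 of gene means, the cutoff for dim genes. PDGFRB (5.11 to 5.39) lay about the cutoff of 5.21, with a mean of 5.18 in the shLATS1+2 arrays and 5.29 in the both-cDNA arrays. CSF1R (5.94 to 6.33), PECAM1 (5.94 to 6.76) and COL1A1 (6.31 to 6.57) were not under it. No label states whether the replicates are separate cultures. The p-values therefore reflect the spread of these arrays alone, which may be technical, and the number of arrays limits the precision.

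The genes that were targeted or transfected were read first. LATS1 (probe set 8130116) stood at 9.28, 9.27 and 9.43 in the both-cDNA arrays and at 7.67, 7.76 and 7.85 in the shLATS1+2 arrays. The groups did not overlap, and LATS1 was 2.96-fold higher with both cDNAs (log2 difference 1.57 ± 0.078 SE, limma, adjusted p = 3.11e-09). In the control arrays it stood at 8.96, 8.80 and 8.81, between the groups, so that LATS1 was also above the control level with both cDNAs (0.47 ± 0.078, limma, adjusted p = 0.000172). LATS2 (probe set 7970498) did not bear out the second part of the shLATS1+2 label: its values were 7.84, 7.90 and 7.72 there, 7.84, 7.63 and 7.72 in the control arrays, and 7.91, 8.01 and 7.99 with both cDNAs (difference 0.15 ± 0.063, limma, adjusted p = 0.112). The arrays are therefore called by their label.

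None of the transfected genes was higher in the both-cDNA arrays than in the shLATS1+2 arrays at an adjusted p under 0.05 (limma). YAP1 overlapped between the groups, at 10.78, 10.92 and 10.94 with both cDNAs and 10.86, 10.85 and 10.73 with shLATS1+2 (difference 0.071 ± 0.075, limma, adjusted p = 0.614). WWTR1 differed by 0.19 ± 0.089 (limma, adjusted p = 0.167), with all 3 both-cDNA arrays above the others. ESR1 (probe set 8122843) was lower in the arrays that received ESR1 cDNA, at 6.07, 6.07 and 5.93, than in the shLATS1+2 arrays with ctrl cDNA, at 6.35, 6.46 and 6.39 (difference -0.38 ± 0.081, limma, adjusted p = 0.00371). Both groups lay above the control arrays, at 5.65, 5.55 and 5.37. A dimmer ESR1 probe set, 8122840, did not follow (difference 0.077, limma, adjusted p = 0.429 over probe sets), and the mean of the probe sets did not pass either (-0.15, adjusted p = 0.07). Which part of a transcript a probe set reads was not analysed here, so a cDNA that lacks that part would go unseen.

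Of 18404 genes measured, 3644 (19.8%) differed between the groups at a limma adjusted p under 0.05, which is what "called" means from here on. With both cDNAs 1873 genes (10.2%) were higher and 1771 (9.62%) lower, and the median over all genes was 0.007. Most differences were small: 502 genes (2.73%) were called at 1.5-fold or more, 273 higher and 229 lower. Values of the groups did not overlap at 6237 genes (33.9%). The count fell to 2145 without shLATS1+2 array 3, to 2207 without both-cDNA array 2 and to 2323 without both-cDNA array 3, while 1841 genes stayed called in the same direction whichever of the 6 arrays was left out. For scale, the shLATS1+2 arrays differed from the shLATS1B arrays at 59 genes (0.321%), 26 higher (0.141%) and 33 lower (0.179%).

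**Figure D1:**
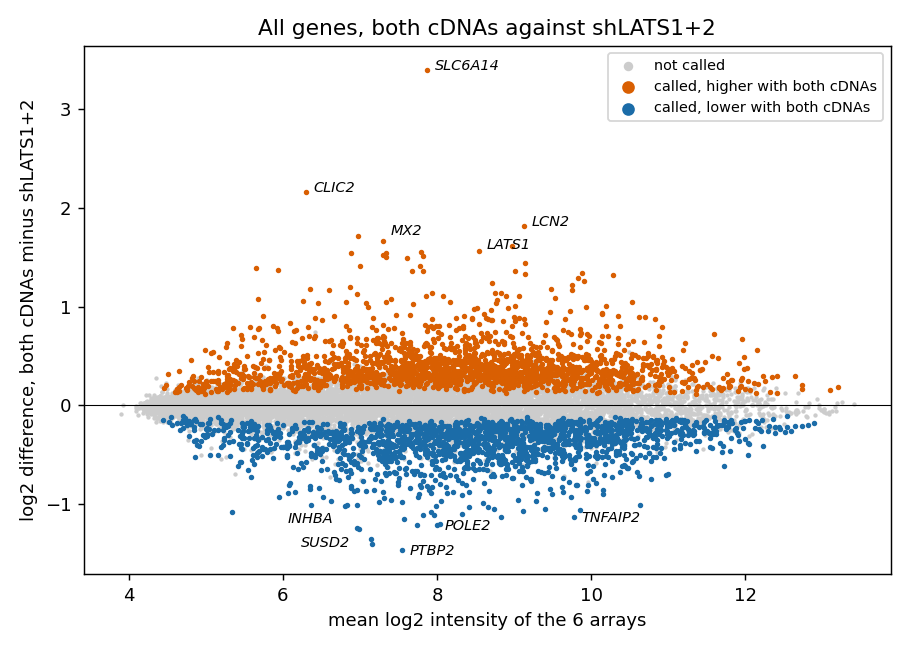
Log2 difference (both cDNAs minus shLATS1+2, vertical axis) against the mean log2 intensity of the 6 arrays (horizontal axis), 1 point a gene. Orange and blue points are the 1873 higher and 1771 lower genes called by limma, grey points the others; SLC6A14 stands alone at 3.40.

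SLC6A14, a broad-range amino acid transporter of epithelia, was the gene furthest apart. It stood at 9.44, 9.65 and 9.60 with both cDNAs and at 6.25, 6.30 and 5.95 with shLATS1+2, a 10.5-fold difference (3.40 ± 0.11 SE, limma, adjusted p = 1.71e-11). The control arrays were lower still, at 5.07, 4.99 and 5.16, and the shLATS1B arrays averaged 7.11, above shLATS1+2 (shLATS1+2 minus shLATS1B -0.95, adjusted p = 0.000265). The transporter was thus lowest in the controls, higher in both kinds of hairpin arrays and highest with the cDNA pair. LCN2, a secreted protein that binds iron carriers of bacteria, had the same order: 10.03, 10.03 and 10.06 with both cDNAs, 8.24, 8.31 and 8.10 with shLATS1+2, and 6.02, 6.25 and 6.42 in the controls (difference 1.82 ± 0.084, 3.53-fold, limma, adjusted p = 1.56e-09). GPX2, a glutathione peroxidase of epithelia, did so too, at 8.41, 8.67 and 8.65 against 7.24, 7.08 and 6.87, with controls from 5.81 to 6.02 (difference 1.51 ± 0.13, 2.85-fold). In 7 of the 12 largest rises the control mean lay below both groups.

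For other large rises the shLATS1+2 arrays were not called against the controls. TCN2, the carrier of vitamin B12, read 7.80, 7.98 and 7.72 with both cDNAs and 6.09, 6.22 and 6.05 with shLATS1+2 (difference 1.71 ± 0.086, limma, adjusted p = 3.14e-09). Against the controls the shLATS1+2 arrays differed by 0.11 (adjusted p = 0.467) and the both-cDNA arrays by 1.82 (adjusted p = 8.89e-11). TP53INP1, a stress-induced regulator of autophagy and p53, behaved alike, with 7.54, 7.57 and 7.86 against 6.10, 6.12 and 6.13 (difference 1.54 ± 0.085) and a shLATS1+2 level 0.02 below the controls (adjusted p = 0.923). The comparisons with the control arrays share those 3 arrays, so their values are given side by side only.

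Another kind of rise came from a low level in the hairpin arrays. CLIC2, an intracellular chloride channel family member, read 7.44, 7.33 and 7.37 with both cDNAs and 5.22, 5.07 and 5.36 with shLATS1+2 (difference 2.16 ± 0.11, 4.47-fold, limma, adjusted p = 4.59e-09). The controls lay highest, between 7.57 and 8.01, and the shLATS1B arrays averaged 4.86, so CLIC2 was low wherever a LATS1 hairpin was present. TSPAN7, a tetraspanin, and CCDC80, a secreted matrix protein, resembled LATS1 itself in that the control mean lay between the groups. TSPAN7 read 9.71, 9.71 and 9.90 against 8.20, 7.96 and 8.32, with controls between 8.88 and 9.01 (difference 1.61 ± 0.10). CCDC80 read 8.52, 8.61 and 8.57 against 7.11, 7.09 and 6.83, with controls between 7.42 and 7.56 (difference 1.56 ± 0.082). The remaining genes of the 12 were MX2 and DDIT3, which are described with their groups, and GMPR, a GMP reductase of purine metabolism (difference 1.54 ± 0.072).

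**Figure D2:**
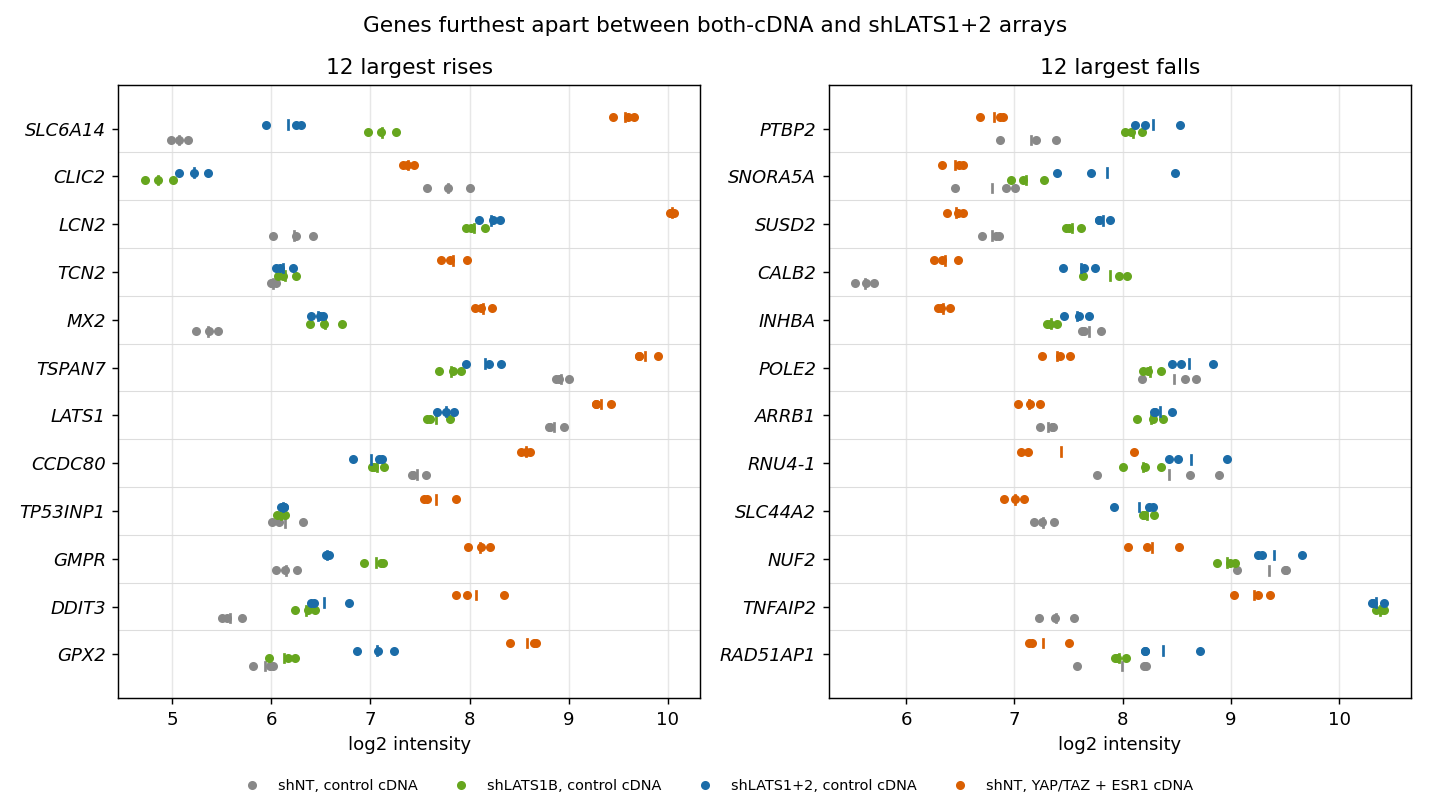
Log2 intensity (horizontal axis) of the 12 largest rises and 12 largest falls, 1 dot an array and a tick at each mean of 3, for the control, shLATS1B, shLATS1+2 and both-cDNA arrays. Only genes without overlap of the groups were eligible, so the 3 both-cDNA arrays lie outside the range of the 3 shLATS1+2 arrays in every row. The control mean lies between the groups in 4 of the rises and in 9 of the falls.

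The falls were smaller. PTBP2, a splicing regulator known from neurons, read 6.89, 6.69 and 6.86 with both cDNAs and 8.20, 8.11 and 8.53 with shLATS1+2, 2.76-fold lower (difference -1.47 ± 0.12, limma, adjusted p = 3.06e-07). The controls spanned 6.87 to 7.39 and the shLATS1B arrays averaged 8.09, so the level was high in both kinds of hairpin arrays. SUSD2, a cell surface protein, followed with 6.48, 6.53 and 6.38 against 7.78, 7.78 and 7.88 (difference -1.35 ± 0.086), and so did ARRB1, a beta-arrestin, with 7.04, 7.24 and 7.15 against 8.46, 8.29 and 8.30 (-1.21 ± 0.11). SLC44A2, a choline transporter-like protein, read 6.90, 7.09 and 7.01 against 8.28, 8.24 and 7.92 (-1.15 ± 0.093). Control means of these genes were 6.80, 7.31 and 7.27. They lay above the both-cDNA arrays, and nearer to them than to the shLATS1+2 arrays. CALB2, the calcium-binding protein calretinin, was above the controls in both groups and higher with shLATS1+2, at 6.25, 6.33 and 6.48 against 7.65, 7.74 and 7.45 (-1.26 ± 0.10). TNFAIP2, a gene induced by tumour necrosis factor, had the same order, at 9.03, 9.36 and 9.25 against 10.41, 10.31 and 10.30, with controls from 7.22 to 7.55 (-1.13 ± 0.11, limma, adjusted p = 1.71e-06). INHBA, the beta A chain of activin, was the reverse: shLATS1+2 overlapped the controls (7.46, 7.59 and 7.69 against 7.63, 7.80 and 7.64), and the both-cDNA arrays lay at 6.33, 6.41 and 6.29 (both minus shLATS1+2 -1.24 ± 0.11). None of the 12 falls was called between shLATS1+2 and shLATS1B, and 3 of the 12 rises were.

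Interferon-induced genes were higher with both cDNAs. These genes encode antiviral proteins, and type I interferon switches them on through a complex that binds the response element made of GAAA, any 2 bases and GAAA. Of 38 measured members of the list of interferon-induced effectors, 27 were higher (71.1%, against 10.2% of all genes), 0 lower and 11 not called, with a median difference of 0.34. Over 31 members with a RefSeq promoter (build GRCh38.p14, 250 bases before to 50 after the start), 22 (71.0%) hold these letters on either strand, against 433 of 14230 promoters of measured genes (3.04%). In the genes called higher the share was 4.75%, and in those called lower 2.66%. The promoters of 7 members, MX2, IFIT2 and OAS2 among them, were not searched. The 250 bases before the start are shown for 3 called members, those with the largest differences among the promoters searched that hold it there, OAS3 (chr12:112938224-112938473), ISG15 (chr1:1013247-1013496) and IFIT1 (chr10:89392373-89392622), all on the plus strand and in capitals at the element.
OAS3: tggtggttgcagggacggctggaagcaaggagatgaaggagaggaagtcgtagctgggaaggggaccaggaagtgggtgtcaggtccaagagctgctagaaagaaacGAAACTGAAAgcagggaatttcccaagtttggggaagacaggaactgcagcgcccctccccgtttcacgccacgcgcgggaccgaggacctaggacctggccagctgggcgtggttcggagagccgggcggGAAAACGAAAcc
ISG15: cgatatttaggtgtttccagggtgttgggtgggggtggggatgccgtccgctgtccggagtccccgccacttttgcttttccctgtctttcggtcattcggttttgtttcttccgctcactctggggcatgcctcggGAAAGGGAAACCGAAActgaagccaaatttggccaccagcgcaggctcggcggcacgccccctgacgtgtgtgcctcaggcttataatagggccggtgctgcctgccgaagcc
IFIT1: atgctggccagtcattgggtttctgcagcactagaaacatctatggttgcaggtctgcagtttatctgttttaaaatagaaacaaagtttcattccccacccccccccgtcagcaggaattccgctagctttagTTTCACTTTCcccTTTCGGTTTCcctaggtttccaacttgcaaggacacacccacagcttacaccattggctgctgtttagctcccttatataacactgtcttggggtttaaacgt
OAS3 and IFIT1 each hold 2 separate copies, and in ISG15 the 2 copies overlap. A match is a description of letters and not a measured binding site.

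The size of the rise varied among the effectors. MX2, a GTPase that blocks viral nuclear entry, read 8.23, 8.12 and 8.06 with both cDNAs and 6.52, 6.49 and 6.40 with shLATS1+2, with controls from 5.24 to 5.47 (difference 1.66 ± 0.13, 3.17-fold, limma, adjusted p = 3.27e-07). IFIT2, which binds viral RNA, stood at 10.13, 10.08 and 9.999 against 8.83, 8.89 and 8.94, with controls from 5.54 to 5.79 (1.18 ± 0.081, 2.27-fold). RSAD2, the antiviral enzyme viperin, stood at 10.56, 10.20 and 10.27 against 9.06, 9.17 and 9.29 (1.17 ± 0.093, 2.25-fold). XAF1, an interferon-induced promoter of cell death, stood at 8.53, 8.58 and 8.42 against 7.16, 7.45 and 7.51 (1.14 ± 0.12). In each of these the order was controls, shLATS1+2, both cDNAs, with no overlap. The genes with printed promoters differed less: OAS3, a synthetase that senses double-stranded RNA, by 0.76, ISG15, a ubiquitin-like modifier, by 0.62 and IFIT1 by 0.61. Averaged over the 38 members, the level was 9.80 ± 0.025 (SD, n = 3 arrays) with both cDNAs, 9.32 ± 0.033 with shLATS1+2 and 7.65 ± 0.085 in the controls. With YAP/TAZ cDNA alone it was 9.04 ± 0.044, and with ESR1 cDNA alone 9.41 ± 0.037. The shLATS1+2 arrays thus held 35 members called above control and the both-cDNA arrays 36, where 11.8% and 14.7% of all genes were called higher. Without both-cDNA array 1 and shLATS1+2 array 3, a choice made after the data had been seen, 23 members were higher and the median was 0.36.

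Sensors, signal factors and antigen presentation genes moved less. Of 30 measured sensors and interferon signal factors, 10 were higher and 1 lower (33.3% and 3.33%, against 10.2% and 9.62% of all genes, median 0.17). IFIH1, a sensor of long double-stranded RNA, read 9.33, 9.32 and 9.29 against 8.67, 8.65 and 8.54 (0.69 ± 0.13). TLR3, which senses RNA in endosomes, read 10.65 in all 3 both-cDNA arrays against 9.997, 10.05 and 10.05 (0.62 ± 0.047, limma, adjusted p = 2.21e-07). PML, a scaffold of nuclear bodies, differed by 0.57 ± 0.080 and the regulator DHX58 by 0.38 ± 0.072, whereas the receptor chain IFNAR2 was lower by 0.37. Of 23 antigen presentation and guanylate-binding genes, 8 were higher (34.8%, against 10.2% of all genes) and 0 lower (median 0.097). WARS1, a tryptophanyl-tRNA synthetase induced by interferon gamma, led with 11.02, 11.09 and 11.07 against 10.09, 10.02 and 9.91 (1.05 ± 0.061, limma, adjusted p = 1.28e-08). Its shLATS1+2 level differed from the controls by 0.15 (adjusted p = 0.101). GBP2, a guanylate-binding protein, differed by 0.90 ± 0.11. The peptide-loading factor TAPBP differed by 0.36 ± 0.083, but the mean of its 3 probe sets did not pass (0.16, adjusted p = 0.268). HLA-DPA1 differed by 0.56 ± 0.10, with shLATS1+2 values from 4.61 to 4.77 under the cutoff for dim genes of 5.21, and its other probe set did not follow (0.09, limma, adjusted p = 0.525 over probe sets). Members of the OAS, IFIT and HLA families share sequence, so that a probe set may read a relative as well.

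Genes of mitosis and DNA replication were lower with both cDNAs. Mitotic genes are switched on together before cell division, and many of their promoters hold the cell cycle homology region, whose core is TTTGAA. Of 34 measured mitosis genes 28 were lower (82.4%, against 9.62% of all genes) and 0 higher, the median was -0.47, and all 34 differences lay below 0. The motif TTTGAA, searched on both strands and chosen after the gene values had been seen, is in 21 of 29 mitosis promoters (72.4%), against 11.9% of all promoters, 15% in genes called lower and 9.57% in genes called higher. The promoters of 5 members, TTK and BIRC5 among them, were not searched. Among those searched, the 3 called members with the largest differences that hold it in the 250 bases before the start are CDK1 (chr10:60778081-60778330, plus strand), HMMR (chr5:163460382-163460631, plus strand) and DLGAP5 (chr14:55191586-55191835, minus strand), with the motif in capitals.
CDK1: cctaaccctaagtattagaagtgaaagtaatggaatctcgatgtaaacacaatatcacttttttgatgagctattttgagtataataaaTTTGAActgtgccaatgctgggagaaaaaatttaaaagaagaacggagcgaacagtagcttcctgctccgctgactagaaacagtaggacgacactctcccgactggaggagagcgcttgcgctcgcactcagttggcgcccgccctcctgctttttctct
HMMR: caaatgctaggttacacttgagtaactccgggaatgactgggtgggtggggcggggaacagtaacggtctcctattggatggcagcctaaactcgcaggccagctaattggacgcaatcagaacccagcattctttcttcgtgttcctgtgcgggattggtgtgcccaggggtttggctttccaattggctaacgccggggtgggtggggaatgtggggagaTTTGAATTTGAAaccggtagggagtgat
DLGAP5: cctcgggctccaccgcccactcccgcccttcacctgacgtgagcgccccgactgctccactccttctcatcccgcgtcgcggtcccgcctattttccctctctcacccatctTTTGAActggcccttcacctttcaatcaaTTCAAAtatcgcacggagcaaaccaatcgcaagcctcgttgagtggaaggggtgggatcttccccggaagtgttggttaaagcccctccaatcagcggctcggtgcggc
HMMR and DLGAP5 hold the motif at 2 places each, and CDK1 at 1.

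NUF2, a subunit of the kinetochore NDC80 complex, had the largest fall of the list, at 8.52, 8.05 and 8.23 against 9.28, 9.25 and 9.66 (difference -1.13 ± 0.16, 2.19-fold lower, limma, adjusted p = 0.000153). CDK1, the kinase that drives entry into mitosis, read 9.50, 8.97 and 9.11 against 9.98, 9.997 and 10.24 (-0.88 ± 0.15). HMMR, a spindle-associated hyaluronan receptor, read 8.49, 8.05 and 8.18 against 9.01, 9.03 and 9.31 (-0.87 ± 0.14), and the checkpoint protein MAD2L1 9.77, 9.34 and 9.41 against 10.23, 10.22 and 10.66 (-0.86 ± 0.16). In these genes both-cDNA array 1 was the highest of its group and shLATS1+2 array 3 the highest of its own. The mean over the whole list did not show that spread: 9.27, 9.18 and 9.27 with both cDNAs, 9.76, 9.75 and 9.74 with shLATS1+2, and 10.15, 10.19 and 10.14 in the controls. Without those 2 arrays 27 mitosis genes were lower, with the same median of -0.47. Single members differed in where the controls lay. CDK1 was not called between shLATS1+2 and the controls (0.02, adjusted p = 0.955). BIRC5, the inhibitor of apoptosis survivin, was below the controls with shLATS1+2 (-0.19, adjusted p = 0.0299). It was lower again with both cDNAs (both minus shLATS1+2 -0.47 ± 0.061). A dimmer BIRC5 probe set did not pass between both cDNAs and shLATS1+2 (-0.18, limma, adjusted p = 0.236 over probe sets). Against the controls 34 mitosis genes were lower with both cDNAs and 25 with shLATS1+2, where 14.7% and 13% of all genes were called lower.

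Of 34 replication genes 17 were lower (50%, against 9.62% of all genes) and 0 higher, with a median of -0.24. POLE2, a subunit of DNA polymerase epsilon, read 7.52, 7.25 and 7.42 against 8.45, 8.54 and 8.84 (-1.21 ± 0.14, 2.32-fold lower, limma, adjusted p = 1.24e-05). GINS1, part of the replicative helicase, read 9.38, 9.28 and 9.31 against 10.29, 10.31 and 10.56 (-1.06 ± 0.088, adjusted p = 4.56e-07). For neither gene were the shLATS1+2 arrays called against the controls (differences of 0.13 and 0.02, adjusted p = 0.58 and 0.913). The clamp loader subunit RFC4 (-0.74 ± 0.11) and the primase PRIM1 (-0.62 ± 0.068) were also lower. MCM2, MCM3 and MCM4, subunits of the same helicase, were not called. RAD51AP1, which assists homologous recombination, read 7.50, 7.17 and 7.13 against 8.21, 8.20 and 8.71 (-1.11 ± 0.20, limma, adjusted p = 0.00117). In bulk samples fewer cells of a kind and less RNA per cell cannot be told apart.

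Genes of the integrated stress response were higher with both cDNAs. This response slows translation and raises ATF4, which in turn switches on genes of amino acid supply and of cell death. Of 32 measured members of the integrated stress and unfolded protein list 17 were higher (53.1%, against 10.2% of all genes). In the same list 1 was lower (3.12%, against 9.62%), and the median was 0.19. DDIT3, the transcription factor CHOP, read 8.34, 7.87 and 7.97 against 6.43, 6.40 and 6.78, with controls from 5.51 to 5.71 (1.52 ± 0.14, 2.88-fold, limma, adjusted p = 1.88e-06). CHAC1, which degrades glutathione, read 7.80, 7.73 and 7.61 against 6.36, 6.40 and 6.13 (1.41 ± 0.12). SLC7A11, the cystine importer, read 10.58, 10.61 and 10.62 against 9.71, 9.68 and 9.63 (0.93 ± 0.041, adjusted p = 1.43e-09). Its controls lay between the groups, from 10.04 to 10.11, as did those of the asparagine synthetase ASNS, which read 8.36, 8.22 and 8.17 against 7.48, 7.42 and 7.41 (0.82 ± 0.068). HSPA5 and CANX, chaperones of the endoplasmic reticulum, differed by 0.37 and 0.30. DDIT4, a target of both stress and hypoxia signals, was the member called lower (-0.15). Without both-cDNA array 2, or after quantile normalization, 0 members were called lower. The list mean was 9.38 in each both-cDNA array, from 9.05 to 9.08 in the shLATS1+2 arrays and from 9.04 to 9.07 in the controls. The count of higher members was 11 without shLATS1+2 array 3, with a median of 0.17.

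Targets of NRF2, the factor that answers oxidants, and enzymes that handle foreign compounds were also higher. Of 27 measured, 14 were higher (51.9%, against 10.2% of all genes) and 1 lower (3.7%, against 9.62%), with a median of 0.19. Beside GPX2 these were AKR1B10, an aldo-keto reductase, at 8.42, 8.33 and 8.33 against 7.43, 6.66 and 6.89 (1.36 ± 0.15), and ALDH3A1, an aldehyde dehydrogenase, at 10.82, 11.02 and 11.004 against 9.74, 9.65 and 9.49 (1.32 ± 0.11, limma, adjusted p = 6.36e-07). The shLATS1+2 arrays were not called against the controls for ALDH3A1 (-0.12, adjusted p = 0.536) and were above them for AKR1B10 (0.97, adjusted p = 0.000126). GPX2 and AKR1B10 also parted the hairpins, with shLATS1+2 above shLATS1B by 0.93 and 1.01 (adjusted p = 0.00151 and 0.00434). The glutathione synthesis enzyme GCLC differed by 0.90, and the transporter ABCC2 was lower by 0.28. Of 20 promoters of the list, 6 (30%) hold the antioxidant response element core TGACNNNGC, against 14.6% of all promoters, 14.8% in genes called higher and 15.5% in genes called lower. Other lists had like shares, such as 29.4% of antigen presentation and 24.1% of mitosis promoters. The ATF4 core TGATGNAA is in 5 of 31 stress response promoters (16.1%), against 2.54% of all, 2.57% in genes called higher and 1.8% in genes called lower. Both motifs were chosen after the gene values had been seen and searched on both strands.

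Among p53 targets and inhibitors of cyclin-dependent kinases, 12 of 25 were higher (48.0%, against 10.2% of all genes). In this list 2 were lower (8%, against 9.62%), and the median was 0.13. Beside TP53INP1, the cell cycle inhibitor CDKN1A read 10.16, 10.33 and 10.21 against 9.50, 9.52 and 9.36 (0.77 ± 0.060, limma, adjusted p = 2.95e-07), with controls from 9.15 to 9.32. SESN2, a sestrin that restrains growth signals, differed by 0.75 ± 0.062 and RRM2B, a subunit of ribonucleotide reductase, by 0.71 ± 0.066. The inhibitor CDKN1B was lower by 0.51 and the kinase PLK2 by 0.37, so the list did not move as one.

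**Figure D3:**
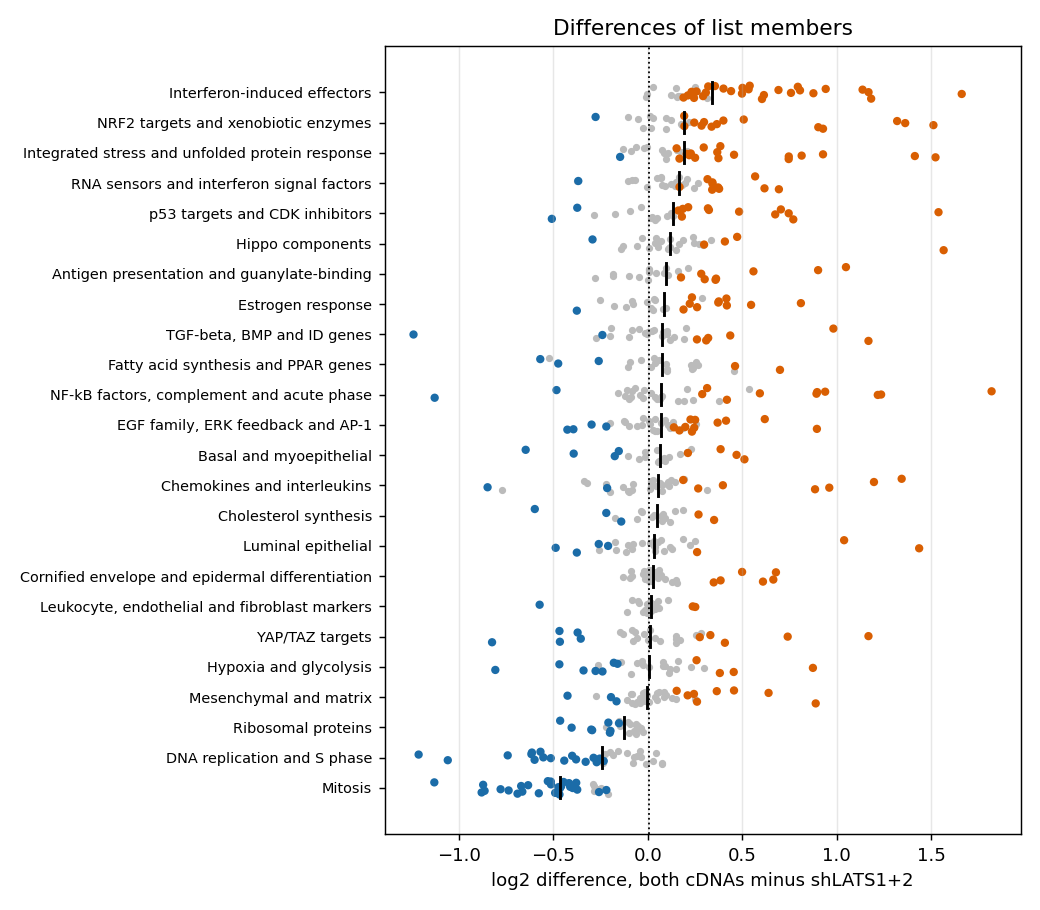
Log2 difference (both cDNAs minus shLATS1+2, horizontal axis) of each measured member of the 24 gene lists, 1 row a list. Orange and blue points are members called higher and lower, grey points the others, black bars the list medians and the dotted line the median of all genes; the rows run from a median of -0.47 for mitosis to 0.34 for interferon-induced effectors.

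Inflammatory genes went in both directions. Of 34 genes of NF-kB, complement and the acute phase 10 were higher (29.4%, against 10.2% of all genes) and 2 lower (5.88%, against 9.62%). The median was 0.073. LCN2 led the rises and TNFAIP2 the falls. The complement proteases C1S (9.28, 9.29 and 9.42 against 8.06, 8.25 and 7.98, difference 1.24 ± 0.097) and C1R (10.26, 10.39 and 10.44 against 9.26, 9.12 and 9.05, difference 1.22 ± 0.10) were both higher, above controls between 6.19 and 6.52 and between 7.51 and 7.80. The acute phase proteins SAA1 and SAA2, which share most of their sequence, differed by 0.90 and 0.94 and the complement factor CFB by 0.89. NFKB1, RELA and NFKBIA were not called, and RELB was higher by 0.42. Of 34 chemokines and interleukins 7 were higher (20.6%, against 10.2% of all genes) and 2 lower (5.88%, against 9.62%), with a median of 0.053. CSF3, which drives granulocyte production, read 10.55, 10.54 and 10.56 against 9.08, 9.14 and 9.39 (1.35 ± 0.075, limma, adjusted p = 9.25e-09). Here shLATS1+2 lay below the controls, which spanned 10.07 to 10.32. IL24, a cytokine of the interleukin 10 family, read 7.56, 7.42 and 7.42 against 6.16, 6.21 and 6.44 (1.20 ± 0.090). The chemokines CCL5 (0.96 ± 0.087) and CXCL11 (0.89 ± 0.21, adjusted p = 0.00625), which are themselves induced by interferon, were higher, and CCL20, which attracts cells with the receptor CCR6, was lower by 0.85. Without both-cDNA array 2 the list had 4 higher members, and without both-cDNA array 1 or shLATS1+2 array 1 it had 4 lower ones.

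YAP/TAZ targets did not move as a group. Of 27 measured, 5 were higher and 5 lower (18.5% each, against 10.2% and 9.62% of all genes). The median was 0.013 and became -0.0026 when arrays were centred on their medians. CCN1, a matricellular protein and common readout of YAP activity, read 7.74, 7.66 and 7.72 with both cDNAs and 8.49, 8.47 and 8.63 with shLATS1+2 (-0.82 ± 0.088, 1.77-fold lower, limma, adjusted p = 6.43e-06). Its controls spanned 7.49 to 7.84, so that CCN1 was above them with shLATS1+2 (0.90, adjusted p = 8.65e-07) and not called with both cDNAs (0.07, adjusted p = 0.634). The related gene CCN2 was lower by 0.47. TGFB2, a growth factor of the TGF-beta family, went the other way, at 7.14, 7.00 and 7.39 against 5.90, 5.98 and 6.15 (1.17 ± 0.093, 2.25-fold higher, adjusted p = 3.3e-07). NT5E, a surface nucleotidase, read 10.06, 10.07 and 10.08 against 9.29, 9.42 and 9.27 (0.74 ± 0.050), below controls between 10.41 and 10.53 in both groups. The target ANKRD1 was not called. Without both-cDNA array 2 or 3, or without shLATS1+2 array 3, 3 targets were higher. The TEAD core CATTCC, searched on both strands, is in 7 of 20 promoters of the list (35%), against 11.6% of all promoters, 9.51% in genes called higher and 9.64% in genes called lower. It is shown in capitals, as CATTCC or its reverse complement, in the 250 bases before TGFB2 (chr1:218345086-218345335, plus strand) and CCN2 (chr6:131951373-131951622, minus strand), the 2 called targets with the largest differences among the promoters searched that hold it there; CCN1 was not searched.
TGFB2: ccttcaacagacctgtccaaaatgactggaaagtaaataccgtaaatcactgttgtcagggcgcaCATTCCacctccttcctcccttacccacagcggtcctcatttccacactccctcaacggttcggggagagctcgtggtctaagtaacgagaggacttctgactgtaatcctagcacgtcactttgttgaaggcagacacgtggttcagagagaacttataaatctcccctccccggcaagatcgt
CCN2: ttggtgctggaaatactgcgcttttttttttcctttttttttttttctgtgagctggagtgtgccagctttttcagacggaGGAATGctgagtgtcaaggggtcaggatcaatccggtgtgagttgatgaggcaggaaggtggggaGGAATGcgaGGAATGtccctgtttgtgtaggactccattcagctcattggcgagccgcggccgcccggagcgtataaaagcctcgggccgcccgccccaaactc
TGFB2 holds 1 copy and CCN2 holds 3, and the genes differed in opposite directions. The letters CATTCC were also in 27.3% of luminal, 26.3% of p53 target and 25.9% of cornified envelope promoters. Other lists had lower shares, such as 9.68% of interferon-induced effectors and 0% of fatty acid and PPAR genes.

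Of 27 measured Hippo components, 4 were higher (14.8%, against 10.2% of all genes), LATS1 among them, and 1 lower (3.7%, against 9.62%). The median was 0.12 and ranged from 0.064 to 0.17 with 1 array left out. VGLL4, a TEAD partner that competes with YAP, differed by 0.47 ± 0.064 (limma, adjusted p = 7.61e-05). PTPN14, a phosphatase that holds YAP in the cytoplasm, differed by 0.41 ± 0.12 and the upstream kinase TAOK2 by 0.30 ± 0.085. Those calls were lost without shLATS1+2 array 3 (adjusted p = 0.113 and 0.101), without both-cDNA array 2 (0.0897 and 0.0768) or without both-cDNA array 3 (0.0946 and 0.0949). The count of higher components was 2 without any 1 of those 3 arrays and 8 without both-cDNA array 1. TEAD2 was the component called lower (-0.29), and TEAD1, TEAD3 and TEAD4 were not called.

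Estrogen response genes were higher in 10 of 24 measured (41.7%, against 10.2% of all genes). The only gene lower was ESR1 itself (4.17%, against 9.62%), and the median was 0.088. The list mean was 7.71 with both cDNAs, 7.57 with shLATS1+2 and 7.67 with shLATS1B, so that the shLATS1B arrays lay near the both-cDNA arrays. It was 7.50 with ESR1 cDNA alone and 7.39 in the controls. STC2, a secreted glycoprotein, read 7.66, 7.73 and 7.72 against 6.91, 6.97 and 6.80 (0.81 ± 0.055, limma, adjusted p = 6.65e-08), with no call between shLATS1+2 and the controls (adjusted p = 0.982). IGFBP4, which binds insulin-like growth factors, read 8.44, 8.60 and 8.64 against 7.97, 8.17 and 7.89 (0.55 ± 0.13). CCND1, the cyclin of the G1 phase, differed by 0.42 ± 0.078 and the adenylate cyclase ADCY9 by 0.42 ± 0.11. The ADCY9 call was lost without both-cDNA array 2 (adjusted p = 0.0719), both-cDNA array 3 (0.0552) or shLATS1+2 array 2 (0.0546). GREB1, a classical estrogen-induced gene, differed by 0.19, and PGR, the progesterone receptor, and TFF1 were not called. The palindromic estrogen response element (GGTCA, any 3 bases, TGACC, a motif that is its own reverse complement) was in 0 of 1557 promoters of genes called higher and 0 of 1390 of genes called lower, and in 3 of 14230 promoters (0.0211%).

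Markers of epithelial state were called in both directions. Of 29 luminal genes 3 were higher (10.3%) and 4 lower (13.8%), near the 10.2% and 9.62% of all genes, and 2 were lower without shLATS1+2 array 3. MUC1, a luminal surface mucin, read 9.53, 10.04 and 10.03 against 8.55, 8.40 and 8.32 (1.44 ± 0.16, 2.71-fold, limma, adjusted p = 1.04e-05), with controls between the groups at 8.93 to 9.34. CEACAM1, an adhesion glycoprotein, read 7.60, 7.59 and 7.61 against 6.54, 6.63 and 6.51 (1.04 ± 0.079). ELF3, an epithelial transcription factor, was lower, at 8.15, 8.48 and 8.55 against 8.90, 8.97 and 8.76 (-0.49 ± 0.11), although both groups stood above controls of 6.16 to 6.60. Of 22 basal and myoepithelial genes 4 were higher and 4 lower (18.2% each, against 10.2% and 9.62% of all genes). Without shLATS1+2 array 3 there were 2 of each. The nerve growth factor receptor NGFR was lower by 0.65 ± 0.083, and the laminin receptor subunit ITGA6 was higher by 0.47 ± 0.084. Smooth muscle actin, ACTA2, differed by 0.51 ± 0.12 and the integrin ITGB6 by -0.39 ± 0.096, and both calls were lost without shLATS1+2 array 3 (adjusted p = 0.0533 and 0.0571). KRT5 and KRT14 were not called (0.061 and 0.089). The mean of the basal and myoepithelial list was 8.66 with both cDNAs, 8.61 with shLATS1+2 and 8.66 with shLATS1B. It was 8.95 in the controls, 8.94 with YAP/TAZ cDNA alone and 8.89 with ESR1 cDNA alone.

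In the mesenchymal and matrix list 8 of 39 genes were higher (20.5%, against 10.2% of all genes) and 3 lower (7.69%, against 9.62%). FN1, the matrix protein fibronectin, read 7.48, 7.68 and 7.68 against 6.69, 6.71 and 6.76 (0.89 ± 0.091, limma, adjusted p = 4.21e-06), both below controls of 8.38 to 8.80. MMP2, a gelatinase, read 6.43, 6.39 and 6.50 against 5.998, 5.76 and 5.64 (0.64 ± 0.081), and TIMP3, an inhibitor of such enzymes, differed by 0.46 ± 0.068. The matrix glycoprotein TNC was lower by 0.42 ± 0.088. The list median was -0.0022, and 0.0061 after quantile normalization, and 5 members were higher without both-cDNA array 2 or 3. The list mean was 6.92 with both cDNAs, 6.86 with shLATS1+2 and 6.91 with shLATS1B. It was 7.10 in the controls, 7.09 with YAP/TAZ cDNA alone and 7.06 with ESR1 cDNA alone. Of 34 cornified envelope and epidermal differentiation genes 6 were higher (17.6%, against 10.2% of all genes) and 0 lower (against 9.62%). In this list 17 had a group mean under the cutoff for dim genes. TGM1, the transglutaminase that cross-links the envelope, read 7.49, 7.58 and 7.50 against 6.68, 6.93 and 6.97 (0.67 ± 0.098), and SPRR1B, one of its substrates, 7.57, 7.65 and 7.56 against 7.11, 6.88 and 6.95 (0.61 ± 0.12). Both genes were lower than the controls in each group. S100A8 (0.68 ± 0.23, adjusted p = 0.0446), a subunit of calprotectin, lost its call without both-cDNA array 1 or 3 or shLATS1+2 array 1 or 2 (adjusted p from 0.0997 to 0.173), and its partner S100A9 differed by 0.50 ± 0.12.

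Among growth factor genes, calls went in both directions. In the list of EGF family, ERK feedback and AP-1 genes, 11 of 35 were higher (31.4%, against 10.2% of all genes). In the same list 4 were lower (11.4%), a share near the 9.62% of all genes. HBEGF, a ligand of the EGF receptor, read 11.13, 11.13 and 11.17 against 10.27, 10.22 and 10.25 (0.90 ± 0.051, 1.86-fold, limma, adjusted p = 1.11e-08), and its controls lay from 9.18 to 9.30. The ligands TGFA (-0.43 ± 0.059) and EREG (-0.39) were lower. The early response factor EGR1 differed by 0.62 ± 0.063 and the AP-1 member FOSL2 by 0.41 ± 0.083. The list had 7 higher members without both-cDNA array 2 or without array 3, and 2 lower ones without shLATS1+2 array 1 or 2. In the TGF-beta, BMP and ID list 6 of 28 were higher (21.4%, against 10.2% of all genes) and 2 lower (7.14%, against 9.62%). The extremes were TGFB2 and INHBA. LTBP1, which stores latent TGF-beta in the matrix, read 8.87, 9.06 and 9.09 against 8.14, 8.07 and 7.86 (0.98 ± 0.098), with controls above both from 10.16 to 10.37. SMURF1, a ligase that limits BMP signals, differed by 0.44 ± 0.090, and ID1 to ID4 were not called.

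Metabolic genes were called in both directions. Of 18 cholesterol synthesis genes 2 were higher (11.1%, against 10.2% of all genes) and 3 lower (16.7%, against 9.62%): ACAT2, a thiolase at the start of the pathway, by -0.60 ± 0.10, EBP by -0.22 ± 0.048 and INSIG1 by -0.14, LSS by 0.35 ± 0.11 and DHCR7 by 0.27 ± 0.073. The 2 rises were lost without shLATS1+2 array 3 or without both-cDNA array 2 or 3. The mean of the cholesterol list was 9.96 with both cDNAs, 9.95 with shLATS1+2 and 9.99 with shLATS1B. It was 9.55 in the controls, 9.34 with YAP/TAZ cDNA alone and 9.38 with ESR1 cDNA alone. In the fatty acid and PPAR list 2 of 22 were higher (9.09%) and 3 lower (13.6%), shares near those of all genes. The higher members numbered 6 without both-cDNA array 1 and 5 after quantile normalization. ACLY, which makes cytosolic acetyl-CoA, differed by 0.70 ± 0.13 and the acyl-CoA synthetase ACSL1 by 0.46 ± 0.083. PPARG, a regulator of lipid genes, was lower, at 6.54, 6.68 and 6.59 against 7.32, 7.16 and 7.04 (-0.57 ± 0.066, limma, adjusted p = 1.77e-05). ANGPTL4, an inhibitor of lipoprotein lipase, read 8.13, 8.07 and 8.19 against 8.51, 8.61 and 8.69 (-0.47 ± 0.050), where the controls stood from 10.92 to 11.05. Of 27 hypoxia and glycolysis genes 4 were higher (14.8%, against 10.2% of all genes) and 7 lower (25.9%, against 9.62%). The median was 0.0057 and became -0.010 with arrays centred on their medians. PDK1, a pyruvate dehydrogenase kinase, read 8.79, 8.65 and 8.66 against 9.40, 9.51 and 9.62 (-0.81 ± 0.098). HK2, a hexokinase, read 9.25, 9.75 and 9.69 against 8.78, 8.85 and 8.43 (0.88 ± 0.15). ENO2 was lower by 0.47 ± 0.098, and the stress-responsive NDRG1 was higher by 0.46 ± 0.096.

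Small RNAs were lower with both cDNAs, and how many were called depended on single arrays. Small nucleolar and Cajal body RNAs guide chemical changes of ribosomal and spliceosomal RNA, and many lie inside introns of other genes. Of 173 measured 65 were lower (37.6%, against 9.62% of all genes) and 0 higher, with a median of -0.20, and 83 had a group mean under the cutoff for dim genes. Their mean level was 6.19, 6.08 and 6.06 in the both-cDNA arrays and 6.35, 6.33 and 6.64 in the shLATS1+2 arrays, and the controls, at 6.14, 6.38 and 6.36, overlapped both. Without shLATS1+2 array 3 the count was 19, without both-cDNA array 2 it was 31, without both-cDNA array 3 it was 36, and without shLATS1+2 array 3 and both-cDNA array 1 it was 24. SNORA5A read 6.49, 6.53 and 6.33 against 7.39, 7.70 and 8.48 (-1.41 ± 0.24, limma, adjusted p = 0.000717). RNU4-1, the U4 RNA of the spliceosome, read 8.11, 7.06 and 7.13 against 8.43, 8.51 and 8.96 (-1.20 ± 0.30, adjusted p = 0.0105), and its call was lost without both-cDNA array 2 (adjusted p = 0.0623), both-cDNA array 3 (0.057) or shLATS1+2 array 3 (0.0592). Ribosomal protein genes were lower in 8 of 22 (36.4%, against 9.62% of all genes) and higher in 0, with all 22 differences below 0 and a median of -0.13. Examples are RPL13 (-0.30 ± 0.040), RPL11 (-0.29 ± 0.050), RPL23 (-0.40 ± 0.099) and RPS24 (-0.46 ± 0.13). Without shLATS1+2 array 3 the count was 2, and 3 without both-cDNA array 2 or 3. The labels give no measure of RNA quality, and its part in these results was not tested.

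Of 25 markers of leukocytes, vessels and fibroblasts 2 were higher (8.0%, against 10.2% of all genes) and 1 lower (4.0%, against 9.62%). Of these markers 16 had a group mean under the cutoff for dim genes. PECAM1, an adhesion molecule of vessels and platelets, read 6.09, 5.94 and 5.998 against 6.45, 6.54 and 6.76 (-0.57 ± 0.077, limma, adjusted p = 7.85e-05), while a dimmer PECAM1 probe set did not pass (-0.12, adjusted p = 0.311 over probe sets) and CDH5 and VWF, other vessel markers, were not called. CD68 (0.25 ± 0.059) and CSF1R (0.24 ± 0.057) were higher, the latter not without shLATS1+2 array 3 (adjusted p = 0.0529).

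**Figure D4:**
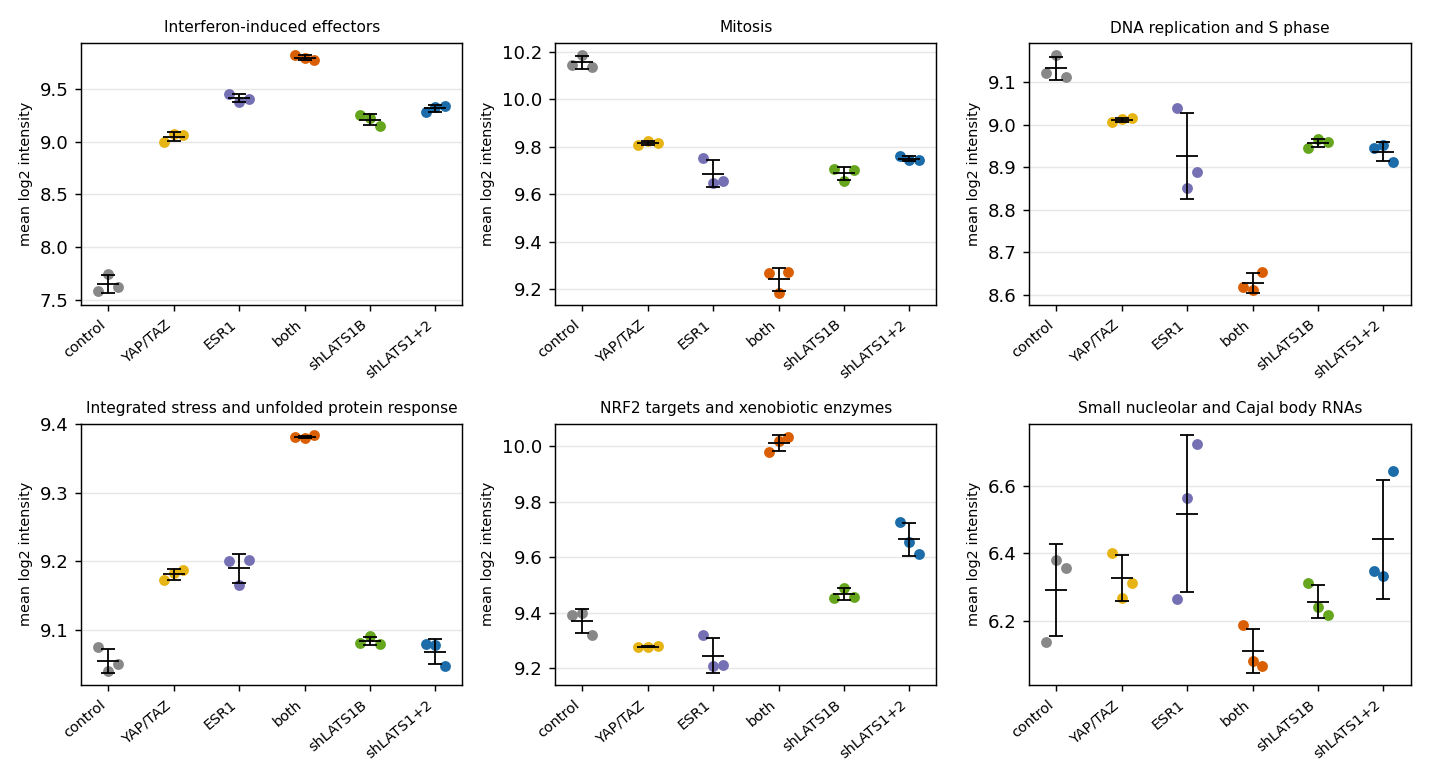
Mean log2 intensity (vertical axis) over the measured members of 6 groups of genes, 1 point an array, in the 6 groups of 3 arrays (horizontal axis); black bars give mean and SD. The both-cDNA arrays stand highest for interferon-induced, stress response and NRF2 genes and lowest for mitosis and replication genes, whereas for small nucleolar RNAs shLATS1+2 array 3 stands at 6.64 above its group.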

How the data were processed

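The deposited table holds log2 intensities of 32321 probe sets in 18 arrays. Per the submitters' processing notes the authors used the R package affy to make these log2 values; the sources used here do not give its version, the background correction or the summary method. Array medians were nearly equal. Labelled cDNA was made from 100 ng of total RNA, per the labels.

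Gene symbols came from GEO's annotation of the platform (19158 probe sets with 1 gene symbol, 1388 with several, 11775 with none) and 19128 of the probe sets with 1 symbol were matched to RefSeq (GRCh38.p14). Each of 18404 genes was represented by its brightest probe set, judged on the mean of the 18 arrays. The model held all 18 arrays and 6 group means and was fitted in limma 3.58.1 (R 4.3.3), two-sided, with 12 residual and 3.94 prior degrees of freedom and Benjamini-Hochberg adjustment over all genes. The procedure was tested on simulated data with errors drawn independently for each gene and array. Deviations shared by a whole array were therefore not simulated. Errors beside differences are moderated standard errors, and folds were computed from the log2 differences. A gene with a group mean under percentile 30 of gene means (5.21) counts as dim, and no dim gene was left out.

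The text names the 5 targeted or transfected genes, the 12 largest rises and the 12 largest falls among called genes without overlap of the groups, and of each of 24 lists the called members that differed most, at most 4. Further list members were named after their values had been seen. Comparison, lists and rules were chosen with earlier results of these data known. The small RNA list and the motifs TTTGAA, TGACNNNGC and TGATGNAA were added after the values had been seen. AP-1 (TGANTCA) and NF-kB (GGGA, any base, TTTCC) motifs were also searched, and were in 6.62% and 0.771% of promoters of genes called higher, 4.1% and 0.791% of those called lower and 5.58% and 0.555% of all.

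Alternatives were other normalizations, probe set rules, filters, thresholds, moderation, array weights, a replicate block and arrays left out. No list was tested as a set.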

Additional observations from a re-analysis of the deposited data

How the results depend on the processing

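The count of called genes, 3644 (1873 higher, 1771 lower), was 2332 (1328 and 1004) without both-cDNA array 1 and shLATS1+2 array 3, an alternative chosen after the data had been seen. It was 1975 (1088 and 887) at an adjusted p under 0.01, and 502 (273 and 229) with a minimum of 1.5-fold. With 1 of the 6 arrays left out it ranged from 2145 to 3832, with 1155 to 2047 higher and 990 to 1785 lower. The share of higher genes was 51.4%, and ranged from 44.5% (all probe sets) to 56.9% (those 2 arrays left out). Array weights gave 5190 calls and the other alternatives 3175 to 4074. The replicate number as a block gave 3374 calls and changed no call among the 110 genes named by rule. The deviations of same-numbered arrays from their group means correlated at -0.45, 0.21 and -0.31. Deviations from a mean of 3 arrays depend on one another, so these values cannot show whether same-numbered arrays were handled together. No gene named by rule changed direction under any alternative run. Single genes named after their values had been seen were not followed through the alternatives. Of 107 called genes named by rule, 10 lost the call without shLATS1+2 array 3, 8 without both-cDNA array 3 and 7 without both-cDNA array 2. ESR1 and TAPBP lost it with the mean of their probe sets, and LSS (adjusted p = 0.0559) and S100A8 (0.0723) when adjusted over all probe sets. The cause was not tested. Signal over background was not analysed here, which limits what can be said of dim genes.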
